A study of Mus musculus with 8 samples.

Results

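The nuclei described here are GABAergic nuclei of the mouse hippocampus that were rich in Adarb2 RNA. They were chosen by counts of unique molecular identifiers (UMIs, each standing for 1 captured RNA molecule). A hippocampal nucleus with at least 500 detected genes was a member if Gad1 and Gad2, the GABA-synthesising enzymes, together had at least 6 UMIs and more than 3 times the count of Slc17a7, the vesicular glutamate transporter of excitatory cells, and if Adarb2, an RNA-binding relative of the RNA-editing enzymes, had at least 10 UMIs. In all, 622 of 46752 hippocampal nuclei were members, out of 108519 nuclei in the whole series. Another 346 hippocampal nuclei passed the same gate with fewer than 10 Adarb2 UMIs and served as the other GABAergic nuclei.

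Single nuclei of C57BL/6JN mice aged 3 or 21 months were profiled from the anterior part of the hippocampus and from the caudate putamen. Punches were taken from the left hemisphere, nuclei were sorted after Hoechst staining, and each of the 8 libraries mixed the same number of nuclei from a male and a female of 1 age. The hippocampus had 2 libraries at 3 months, called young 1 and young 2, and 2 at 21 months, called old 1 and old 2. No genotype or treatment other than age was given. With 2 libraries per age, and no statement of what the replicate numbers share, p-values measure only the spread between these libraries.

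Cortical and hippocampal inhibitory interneurons arise mainly from the medial and the caudal ganglionic eminences of the embryonic forebrain. Both kinds keep Dlx-family transcription factors and the Dlx6os1 transcript into adulthood. Adarb2 is in common use as a marker of the caudal kind, which includes interneurons that target other interneurons and express Vip, basket cells that express Cck and the cannabinoid receptor Cnr1, and neurogliaform cells that express Lamp5, Reln or Npy. In the hippocampus some Lamp5 cells are known to carry Lhx6, a factor of the medial kind. GABAergic neurons of the midbrain and diencephalon depend instead on factors such as Gata2, Gata3, Tal1, Otx2, Pax3 and Pax7.

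Young 1, young 2, old 1 and old 2 gave 120, 306, 115 and 81 members. The median member held 14367, 18513, 17553 and 18302 UMIs in that order, against 7963, 9487, 7910 and 8365 in all nuclei of these libraries. The members' summed counts came to 2069721, 6365196, 2192903 and 1686306 UMIs, so that young 2 supplied more than the rest together. Scrublet called 31 members doublets, 21 of them in young 2. By Xist and 4 Y-linked genes, 218 members were female, 244 male and 8 neither, while 152 had UMIs of both, 103 of these in young 2. Library pairs shared 20 to 64 barcodes, none of them a member in both libraries, and no member had more than 5% mitochondrial UMIs.

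The values that chose the members are given as a description. Median Adarb2 UMIs per member were 78.5, 73, 73 and 92 in young 1, young 2, old 1 and old 2. Of the gated nuclei, 165 had no Adarb2 UMI, 40 had 5 to 9, just outside the threshold, 43 had 10 to 14, just inside it, and 261 had 100 or more. Adarb2 alone did not mark GABAergic nuclei: 22348 hippocampal nuclei outside the GABAergic gate also had 10 or more Adarb2 UMIs. Slc17a7 had no UMI in 440 members.

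The label of caudal ganglionic interneurons presumes a forebrain origin, and not every member carried forebrain regulators. Medial and caudal cells both keep Dlx genes, so these cannot tell caudal from medial members. A list of 7 forebrain factors and transcripts (among them Dlx1, Dlx2, Dlx5, Dlx6 and Dlx6os1, here the Dlx list) was set against a list of 10 midbrain and diencephalic ones (Otx2, Otx2os1, Gata2, Gata3, Tal1, Sox14, Pax3, Pax7, Lhx1 and Lhx5, here the Otx2 list). Both were written after the clusters below had been seen, so the split is a description. Of the 622 members, 389 (62.5%) had more UMIs of the Dlx list and are called Dlx-side, 221 (35.5%) had more of the Otx2 list and are called Otx2-side, and 12 tied. Only 27 members had UMIs of both lists.

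The libraries differed in this composition. Dlx-side nuclei made up 76.7% of the members of young 1 (95% Clopper-Pearson interval 68.1 to 83.9), 61.8% of young 2 (56.1 to 67.2), 47.0% of old 1 (37.6 to 56.5) and 66.7% of old 2 (55.3 to 76.8). Old 1 was lowest and young 1 highest, with the other two between them, so the ages overlapped (exact two-sided permutation p = 0.667, where 2 against 2 libraries have 6 arrangements and cannot reach 0.05). These intervals cover counting error only. Among the GABAergic nuclei with little Adarb2, 71.1% were Dlx-side and 26.0% Otx2-side. Outside the gate 18.2% to 26.2% of nuclei had any UMI of the Dlx list and 4.23% to 7.05% any of the Otx2 list.

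**Figure D1:**
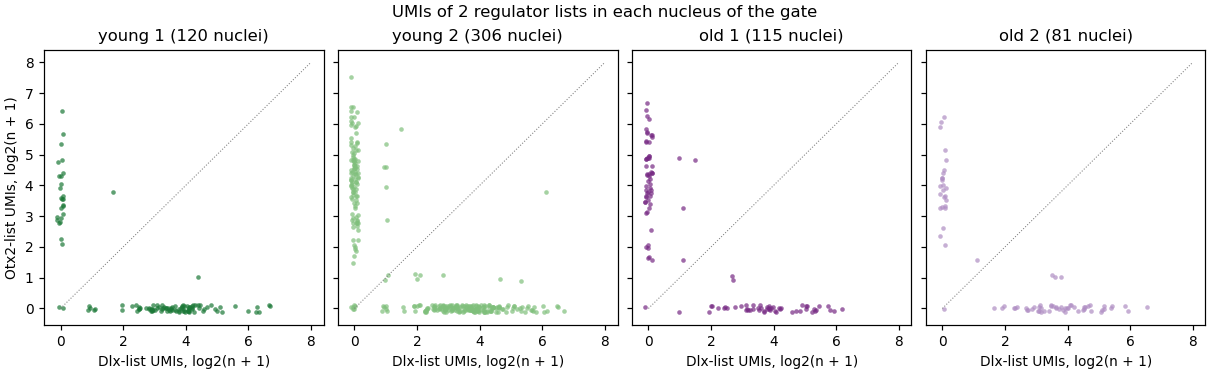
UMIs of the Dlx list (horizontal) and of the Otx2 list (vertical) in each member, as log2(n + 1), with 1 panel per library, 1 point per nucleus and a dotted line where both are equal. Points have a small random offset; most nuclei lie along one axis or the other, and old 1 has the largest share along the vertical one.

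Dlx-side members carried more of the defining RNA than Otx2-side members, and were also somewhat deeper. The median Dlx-side member had 111 Adarb2 UMIs and 15 Gad1 plus Gad2 UMIs, and the median Otx2-side member 50 and 10. Median total UMIs were 18736 and 16288, with the widest gap in old 1 (21428.5 and 14732.0). Otx2os1, a transcript that overlaps Otx2, was at 860 CPM (counts per 1000000 UMIs of the group) in the pooled Otx2-side nuclei, and between 694 and 1083.0 CPM in each library. It was at most 4.22 CPM in the Vip-, Cck- and Lamp5-like clusters described below. Dlx6os1 had no UMI in the Otx2-side nuclei. Otx2os1 and Dlx6os1 both counted toward the side a nucleus was given, so their levels there were largely set by the split.

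Some genes outside both lists followed the same divide. The 4 given here are chosen examples, without a test. Erbb4, the neuregulin receptor that forebrain interneurons carry, stood at 301 CPM in Otx2-side nuclei (380, 229, 330 and 531 in young 1, young 2, old 1 and old 2) and at 2526.3 to 16874.9 CPM in the Vip-, Cck- and Lamp5-like clusters. Its ligand gene Nrg1 lay the other way, at 4837.9 CPM in Otx2-side nuclei (4008.1, 4571.9, 6022.7 and 4269.1 by library) against 188 to 1252.7 CPM in 4 pools of those clusters (Vip-like, Cck-like, and the Lamp5-like ones without and with Lhx6). Chrm2, a muscarinic acetylcholine receptor, was at 626 CPM in Otx2-side nuclei (610, 615, 631 and 683) and at no more than 15.5 CPM in those pools. Npsr1, the neuropeptide S receptor, was at 132 CPM (227, 82.1, 165 and 232) against at most 2.38 CPM. In all 4 genes the 4 libraries of Otx2-side nuclei were on the same side of these levels.

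Clustering the members on their variable genes, without the 4 genes of the gate and without sex-linked genes, gave 20 clusters. A name needed at least 3 markers of a list. Each had to reach 10 CPM and lie at least 1 log2 unit above the mean of the other clusters. The list also had to hold more such markers than any other list used for names. Fewer than 3 such markers of another cell class, such as astrocytes, were allowed. Clusters 2, 5 and 10, with 136 nuclei, were Lamp5-like, clusters 3 and 9, with 96, Cck-like, and clusters 6 and 11, with 56, Vip-like. Of these, 135 Lamp5-like, all 96 Cck-like and 55 Vip-like nuclei were Dlx-side. Cluster 4, with 43 nuclei led by Meis2 and Foxp2, matched the marker list for GABAergic cells from outside the hippocampus, and every nucleus in it was Otx2-side. The names were rebuilt from markers, and genes discussed by cluster, other than those of the gate, could take part in the clustering. The levels below therefore carry no test.

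Another 291 nuclei had no name. Of these, 140 sat in clusters with too few markers, 119 of them Otx2-side. Another 151 sat in clusters that carried markers of other classes: cluster 1 of astrocytes (5 markers, 30.3% called doublets), cluster 8 of oligodendrocytes (6 markers, 66.7%), cluster 14 of endothelial cells (5 markers, 0.0%), and clusters 15 and 17 of excitatory and granule cells (28.9% and 23.1%). Cluster 7, led by Il1rapl2 and Sox6, had the largest median depth, 33840.5 UMIs, and markers of both the medial list and excitatory cells. In it 0.0% of nuclei were called doublets, while 52.8% had UMIs of both Xist and Y-linked genes. Leaving out called doublets therefore kept all nuclei of cluster 7. The part of such mixed nuclei in any difference between ages was not tested. The age test was also run on the Dlx-side nuclei alone and on the Vip-, Cck- and Lamp5-like clusters alone, which are meant below by the named clusters.

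**Figure D2:**
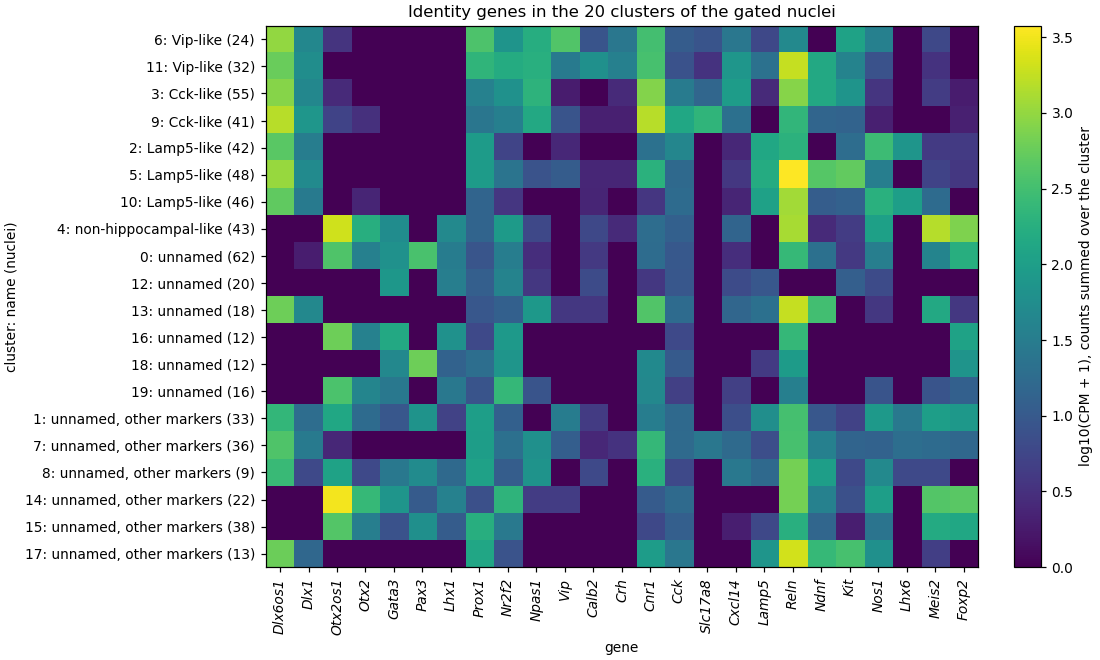
Levels of identity genes in the 20 clusters, as log10(CPM + 1) of the counts summed over a cluster, with the name and number of nuclei beside each row. Dlx6os1 is bright in the Vip-, Cck- and Lamp5-like rows and dark in clusters 0, 4, 12, 14, 15, 16, 18 and 19, which have at most 16.0 CPM of the Dlx list and 191.6 to 3787.7 CPM of the Otx2 list.

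The Vip-like nuclei pooled had Vip, the vasoactive intestinal peptide, at 207 CPM (265, 183, 223 and 150 in young 1, young 2, old 1 and old 2), against 9.92 CPM or less in each Cck- or Lamp5-like cluster. Most of it came from cluster 6, with 24 nuclei and 401 CPM, and cluster 11, with 32 nuclei, had 27.6 CPM and was named from Calb2, Crh, Tac2 and Penk. Calb2, a calcium-binding protein gene, was at 62.1 CPM in cluster 11 and 7.43 in cluster 6, and the peptide gene Crh at 34.5 and 24.8 CPM. A pair of further genes was highest in these nuclei in each library: Prox1, a transcription factor that maintains caudal ganglionic interneurons, at 291 CPM against 13.1 to 91.1 in the Cck- and Lamp5-like clusters, and Grm8, a presynaptic metabotropic glutamate receptor, at 2043.0 CPM against 10.5 to 151.9. Grm8 ranged from 1281.6 CPM in young 1 to 2912.3 in old 1. Only 17, 26, 8 and 5 nuclei of young 1, young 2, old 1 and old 2 were Vip-like, so the old values rest on few nuclei.

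The Cck-like nuclei had the most RNA of Cnr1, the presynaptic cannabinoid receptor, at 1135.3 CPM (1320.1, 909, 1190.0 and 1362.1 by library), against 331 in Vip-like and 190 in the Ndnf- and Kit-rich Lamp5-like cluster. Cluster 9 had 1537.2 CPM and cluster 3 had 813.7. Slc17a8, the vesicular glutamate transporter VGLUT3 found in some Cck basket cells, was at 106 CPM (130, 69.7, 158 and 109) and at 7.43 CPM or less in each Vip- or Lamp5-like cluster. It was concentrated in cluster 9, with 41 nuclei and 219.5 CPM, while cluster 3, with 55 nuclei, had 14.3 CPM. Cck itself was at 131.9 CPM in cluster 9 but at 29.5 in cluster 3, below the 43.3 of Lamp5-like cluster 2. Cluster 3 was named from Cnr1, Tnfaip8l3, Necab1 and Cxcl14, without Cck. Cadps2, a factor for dense-core vesicle release, was at 2080.1 CPM in the pooled Cck-like nuclei against 378 in Vip-like and 21.3 CPM or less in both Lamp5-like pools. Npas1 and Npas3, transcription factors of the caudal lineage, were shared with the Vip-like nuclei: Npas3 was at 5086.4 CPM in Cck-like and 5149.2 in Vip-like nuclei, but at 44.7 in the Lhx6-bearing Lamp5-like clusters.

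The Lamp5-like nuclei were of more than 1 kind. Cluster 5, with 48 nuclei (14, 23, 5 and 6 by library), carried Reln at 3755.5 CPM, the receptor tyrosine kinase gene Kit at 516, Ndnf at 429 and Npy at 102, and had no Lhx6 UMI. Clusters 2 and 10, with 88 nuclei (17, 39, 19 and 13), carried Lhx6 at 88 CPM (74.1, 90.9, 88.3 and 96.6), Ndnf at 5.59 and Kit at 14.7. Reln differed between them, at 197.1 CPM in cluster 2 and 1215.6 in cluster 10. Lamp5 itself was similar, at 157 and 123 CPM. The median Adarb2 count, which the rule used, was 35 UMIs in cluster 2 and 61.5 in cluster 10, against 435 and 437 in the Cck-like clusters.

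Chosen examples of synaptic and channel genes also differed in level between these kinds, without a test. The Lhx6-bearing Lamp5-like clusters had Gabrg3, a GABA-A receptor subunit, at 7062.7 CPM, against 3071.0 in cluster 5, 1612.7 in Vip-like and 488 in Cck-like nuclei. Cacna2d1, an auxiliary calcium channel subunit, was at 3571.2 and 2164.0 CPM in the Lamp5-like kinds, 454 in Vip-like and 95.7 in Cck-like nuclei. Nxph1, a secreted neurexin ligand, was at 3370.8 and 4506.5 CPM in the Lamp5-like kinds against 44.1 in Vip-like and 174 in Cck-like nuclei. Mgll, which degrades the endocannabinoid 2-AG, was at 471 CPM in the Lhx6-bearing clusters, 218 in cluster 5, 172 in Cck-like and 77.5 in Vip-like nuclei. The potassium channel gene Kcnq5 ran the other way, highest at 2733.8 CPM in Cck-like nuclei and lowest among the named clusters at 842 in the Lhx6-bearing ones.

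**Figure D3:**
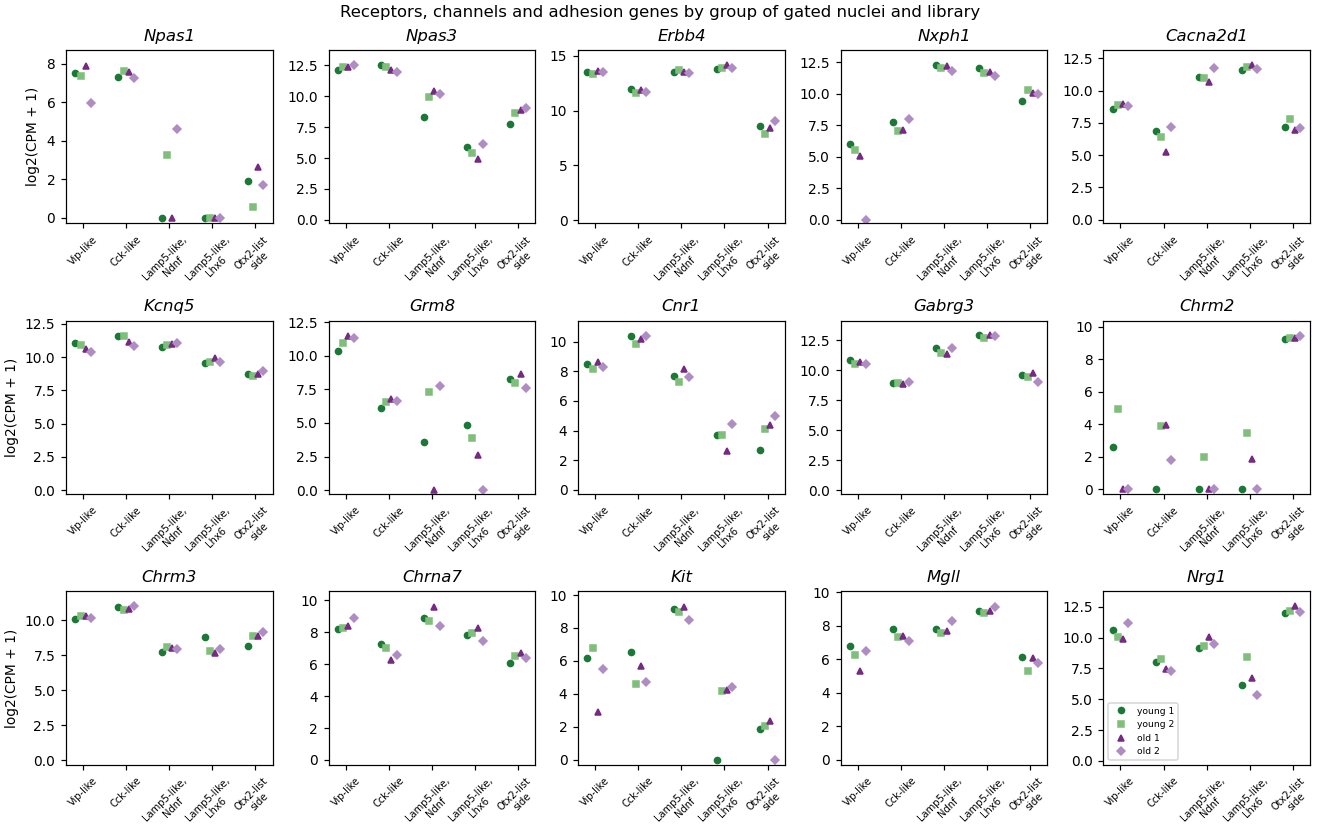
Levels of 15 genes, as log2(CPM + 1), in the Vip-like nuclei, the Cck-like nuclei, the Lamp5-like cluster 5 (Ndnf), the Lamp5-like clusters 2 and 10 (Lhx6) and the Otx2-side nuclei, with 1 point per library. Erbb4 is lowest and Chrm2 and Nrg1 are highest in Otx2-side nuclei, Grm8 is highest in Vip-like and Cnr1 in Cck-like nuclei, and Nxph1 and Cacna2d1 are highest in the Lamp5-like kinds.

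How far single UMIs set members apart from nuclei outside the gate differed between markers. Vip was detected in 10.0%, 7.52%, 3.48% and 2.47% of members of young 1, young 2, old 1 and old 2, against 1.19%, 1.58%, 0.521% and 0.451% of nuclei outside the gate, which were shallower. Cnr1 was detected in 55.8%, 49.0%, 39.1% and 54.3% of members against 5.38% to 10.7% outside. Reln was detected in 61.7% to 70.9% of members against 3.52% to 5.79% outside. Cck was detected in 18.3% to 30.7% of members and in 8.93% to 26.7% of nuclei outside. After thinning every nucleus to 5000 UMIs, which kept 117, 305, 115 and 81 members and left out shallower nuclei, Cck was detected in 13.7%, 10.8%, 6.09% and 11.1% of members against 8.87%, 13.7%, 4.94% and 6.13% outside, so in young 2 the order turned. Thinned, Vip was in 5.13%, 4.26%, 3.48% and 2.47% of members against 0.269% to 0.766% outside, Cnr1 in 29.6% to 43.6% against 2.67% to 5.42% and Reln in 50.6% to 61.7% against 2.22% to 4.09%. Unthinned, Prox1 was detected in fewer members than nuclei outside in every library (24.3% to 49.7% against 50.1% to 64.9%). Unthinned Sv2c was detected in more members than nuclei outside, except in old 1. Its values by library were 39.2%, 33.0%, 19.1% and 34.6% against 23.3%, 31.2%, 25.8% and 27.7%. Thinned, both were detected in fewer members than nuclei outside, except Sv2c in young 1 (26.5% against 19.6%).

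The share of members among hippocampal nuclei overlapped between ages. They were 1.09% (0.903 to 1.3) and 1.52% (1.35 to 1.7) of the nuclei of young 1 and young 2, and 1.28% (1.06 to 1.53) and 1.24% (0.983 to 1.53) of old 1 and old 2. Both old libraries lay between the young ones, and the mean went from 1.3% ± 0.304 (SD, n = 2) to 1.26% ± 0.0299 (SD, n = 2; exact permutation p = 1). Of all gated GABAergic nuclei, members were 62.8% in young 1, 64.7% in young 2, 66.1% in old 1 and 62.3% in old 2, again overlapping (exact permutation p = 1). Dlx-side members alone averaged 0.886% of nuclei at 3 months and 0.712% at 21 months, and nuclei of the named clusters 0.642% and 0.566%. In both cases the ages did not overlap, with the smallest p that 6 arrangements allow. The Dlx-side counts were 92 of 11030 nuclei in young 1, 189 of 20168 in young 2, 54 of 8999 in old 1 and 54 of 6555 in old 2. The Dlx-side shares of young 1 and old 2 were thus nearly level. The gate counts UMIs, so depth bears on it: after thinning every nucleus to 5000 UMIs, 29, 55, 25 and 13 members remained out of 7763, 15615, 6241 and 4597 nuclei.

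Vip-like nuclei took a smaller share of the members in both old libraries. They were 14.2% (8.47 to 21.7) of members in young 1, 8.5% (5.63 to 12.2) in young 2, 6.96% (3.05 to 13.2) in old 1 and 6.17% (2.03 to 13.8) in old 2. The ages did not overlap, but the intervals did, and the exact permutation p was the smallest that 6 arrangements allow, which cannot reach 0.05. Within Dlx-side members the shares were 18.5%, 13.2%, 14.8% and 9.26%, which overlapped between ages. Cck-like nuclei were 18.3%, 14.1%, 13.0% and 19.8% of members and Lamp5-like nuclei 25.8%, 20.3%, 20.9% and 23.5%, with overlap in both (exact permutation p = 1 each). Of Dlx-side members, Cck-like nuclei were 23.9%, 22.8%, 27.8% and 29.6% and Lamp5-like nuclei 32.6%, 32.8%, 44.4% and 35.2%, higher in both old libraries. The Lhx6-bearing Lamp5-like nuclei were 17.4%, 20.6%, 35.2% and 24.1% of them and cluster 5 was 15.2%, 12.2%, 9.26% and 11.1%, so these kinds lay in opposite order by age. These shares of Dlx-side members were looked at after the data had been seen and were not tested.

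Members were next compared with the other GABAergic nuclei of the same libraries, to see which genes differed with Adarb2. The nuclei were split on Adarb2 itself, so the p-values say how repeatable a difference was over 4 libraries, and the 4 genes of the gate are not counted among the genes tested, nor are their p-values read. Of 11922 genes, 636 (5.33%) were higher and 602 (5.05%) lower in members at an adjusted p under 0.05, together 10.4%. Adarb2 was at 10850.3, 7891.7, 8767.4 and 10319.0 CPM in members and 62.2 to 85.9 CPM in the others, which the rule fixed. Nuclei outside the gate had 1585.7 to 1956.0 CPM of it. With only the Dlx-side nuclei of both classes, a restriction chosen after seeing the data, 728 of 10277 genes (7.08%) were higher and 755 (7.35%) lower, and 1020 of the 1238 genes called above were called again.

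The caudal ganglionic identity genes were mostly higher in members. Of 10 tested, 7 were higher and 1 lower, with a median log2 fold change of 0.92 against 0.00 over all genes. Prox1 (chromosome 1, 190118035 to 190170714 on GRCm38) was at 72, 90.3, 48.8 and 60.5 CPM in members and 16.8, 16.7, 11.8 and 9.69 CPM in the others. Every member value lay above every value of the others (log2 fold change 2.29, SE 0.15, edgeR adjusted p = 2.14e-08). Among the clusters with markers of other classes, Prox1 ran from 6.5 CPM in cluster 14 to 175.8 CPM in cluster 15, which carried granule cell markers. The part of such nuclei in the Prox1 values was not tested. Npas1, Npas3, Nr2f2 and Zbtb16, all transcription factors, were higher by 1.26, 1.17, 1.04 and 1.25 on the log2 scale, Nfib by 0.81 and Dlx6os1 by 0.80. In the Dlx-side nuclei 9 of 11 tested were higher and none lower, with a median of 1.53, although Dlx1 and Dlx6os1 among the 9 also served to choose those nuclei.

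All 9 tested genes of the medial ganglionic list were lower in members, with a median log2 fold change of -1.73, and all 9 were also lower in the Dlx-side nuclei. Sst, the somatostatin gene (chromosome 16, 23889573 to 23890958), was at 0.483, 0.314, 2.28 and 0.593 CPM in members and at 39.6, 22.2, 8.14 and 33.9 CPM in the others, without overlap (log2 fold change -4.95, SE 0.48, edgeR adjusted p = 5.35e-05). Sox6, a factor of the same lineage (chromosome 7, 115470872 to 116038796), was at 61.4, 31.3, 20.1 and 14.8 against 434, 239, 185 and 166 CPM (-3.06, SE 0.12, adjusted p = 3.74e-11). Lhx6, the factor that specifies medial cells, was at 14.5, 13.5, 17.3 and 13 against 48.8, 49.4, 47 and 39.6 CPM (-1.73, adjusted p = 7.25e-07). Of 173 Lhx6 UMIs in Dlx-side members, 126 were in the Lhx6-bearing Lamp5-like clusters described above. Satb1, Elfn1 and Pvalb were lower by -1.93, -1.82 and -1.45. Maf was lower by -0.52 over all members, but its direction turned when only named clusters were used.

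Named by the rule for their large differences were Slc17a8, Kit and Cadps2. Slc17a8 (chromosome 10, 89574020 to 89621253) was at 32.9, 13.7, 28.7 and 26.1 CPM in members and 0.762, 0.927, 0 and 0 CPM in the others (log2 fold change 5.09, SE 0.41, edgeR adjusted p = 3.97e-07). Kit (chromosome 5, 75574916 to 75656722) was at 81.2, 51.2, 45.1 and 45.7 against 6.1, 2.16, 1.81 and 3.23 CPM (4.11, SE 0.22, adjusted p = 2.27e-09). Cadps2 (chromosome 6, 23262773 to 23839421) was at 554, 439, 568 and 594 against 12.2, 30, 32.6 and 17 CPM (4.44, SE 0.26, adjusted p = 0.000114). In these 3 genes the classes did not overlap, and the differences were as large or larger in the Dlx-side nuclei. Syt6, a synaptotagmin, and Rgs12, a regulator of G-protein signalling, were likewise higher by 4.13 and 3.71.

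Pax3, a factor of the Otx2 list, was at 6.76, 76.8, 61.6 and 42.7 CPM in members and 0, 3.09, 2.71 and 0.807 CPM in the others (log2 fold change 4.70, SE 0.25, edgeR adjusted p = 2.27e-09), with young 1 well below the rest of the members but above all of the others. It was at 177 CPM in pooled Otx2-side nuclei and at a mean of 0 CPM in Dlx-side members, but it helped to assign nuclei to a side, and it was not tested in the Dlx-side nuclei. Ntng1, a cell adhesion gene, was at 793, 420, 408 and 801 against 18.6 to 81.5 CPM (3.30, SE 0.50), but its adjusted p of 0.0438 passed the threshold narrowly, rising to 0.167 without old 1, 0.155 without young 1 and 0.116 without young 2. Lama4, a laminin gene, was lower by -2.93 (adjusted p = 0.0146), which reached 0.119 in the Dlx-side nuclei and 0.0826 without old 1.

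**Figure D4:**
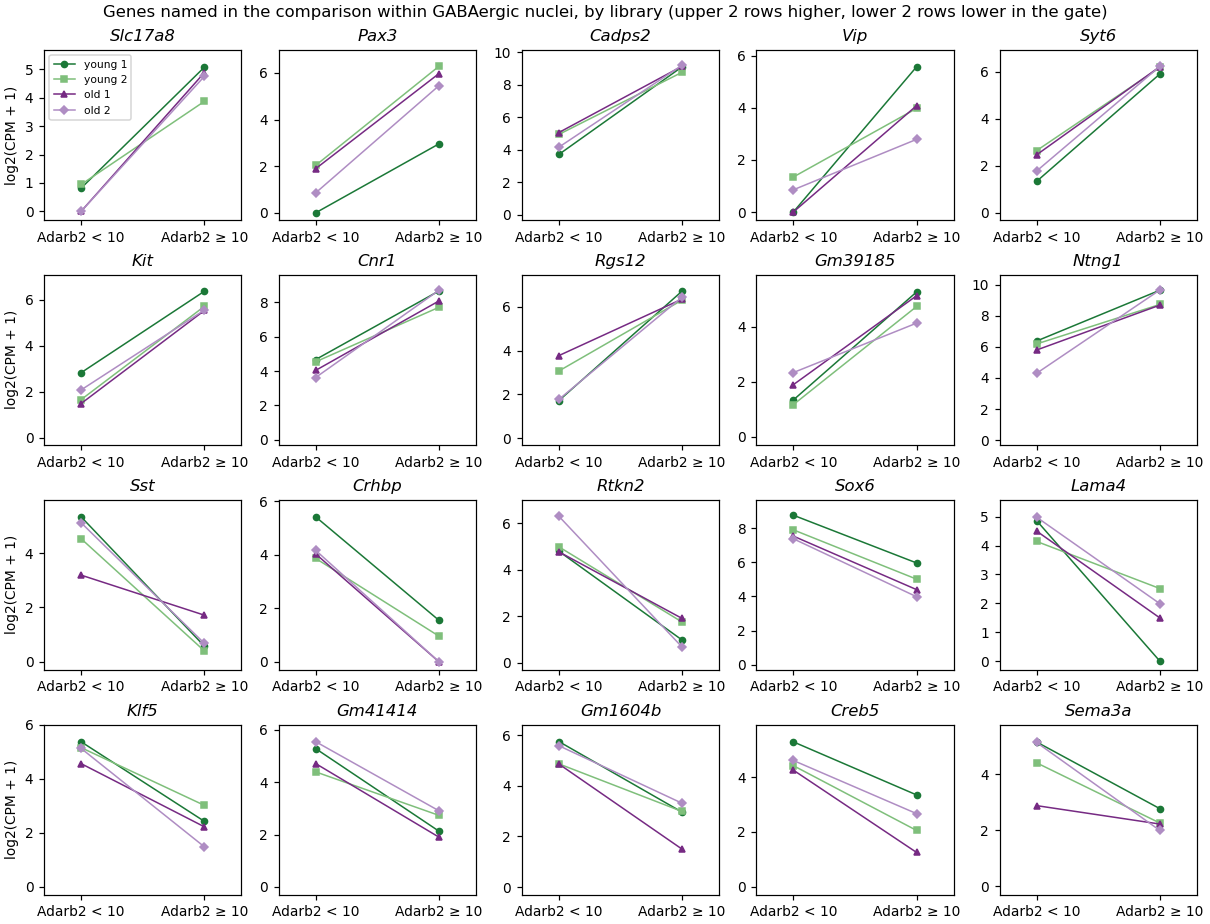
Levels of the 20 genes named by the rule, as log2(CPM + 1), in the other GABAergic nuclei (Adarb2 < 10 UMIs) and in members (Adarb2 ≥ 10 UMIs), with a line for each library. Every line rises in the 10 genes of the upper rows, such as Slc17a8 and Kit, and falls in the 10 of the lower rows, such as Sst and Sox6.

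Peptide genes were called in both directions between the classes. Vip and Cnr1 were among the markers given for these nuclei, so their values describe the members. Vip was at 46.9, 14.8, 16 and 5.93 CPM in members and between 0 and 1.54 CPM in the others, and Cnr1 at 405, 209, 270 and 417 against 11.3 to 24.4 CPM. Of 7 peptide genes tested, Vip and Pnoc, the nociceptin precursor (0.69), were higher, and Sst, Tac1 (-3.33) and Cort (-2.18) lower. Npy1r, a neuropeptide Y receptor, was at 14.5, 15.9, 8.21 and 7.71 CPM in members with a mean of 2.12 CPM in the others (2.23, SE 0.33, edgeR adjusted p = 0.000175). Oprd1, the delta opioid receptor, was lower by -1.82 (adjusted p = 1.3e-06), the only receptor of 11 tested that was. Npy1r was the only one of the 11 that was higher. Over all genes 5.33% were higher and 5.05% lower, so these calls say little about the receptors as a group. In the endocannabinoid list, 3 of 10 were higher: Cnr1, and the degrading and synthesising enzymes Faah (0.48) and Napepld (0.71).

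Of 7 tested genes of GABA synthesis and transport only Abat, the GABA transaminase, passed the test, as lower, and its call was lost in the Dlx-side nuclei (edgeR adjusted p = 0.0818), in the named clusters, without called doublets, with DESeq2, without the library block and at 20 Adarb2 UMIs. Of 12 GABA-A receptor subunits 5 were higher (among them Gabra2 by 0.87, Gabra4 by 0.73, Gabra5 by 0.69 and Gabrb1 by 0.67) and Gabrg3 was lower by -0.45. The Gabrg3 call was not kept in the Dlx-side nuclei (adjusted p = 0.0859), and its direction turned in the named clusters. The list's median was 0.01.

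Of 17 ionotropic glutamate receptor genes none was higher and 6 were lower, with a list median of -0.03. Gria1, an AMPA receptor subunit, was at 1654.3, 2334.1, 1786.7 and 1841.9 CPM in members with a mean of 5246.4 in the others (-1.49, SE 0.12, edgeR adjusted p = 1.36e-06). Gria3 and Gria4 were lower by -0.90 and -0.85 and the kainate receptor gene Grik3 by -1.81. In the Dlx-side nuclei the same 6 were lower, while Grin2b, Grin2d and Grid1 were higher. Of 6 metabotropic receptors 2 were lower, among them Grm5 (-0.46). Chrna7, the alpha7 nicotinic subunit, and Chrm3 were higher by 0.75 and 0.45 among 5 acetylcholine receptors.

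Ion channels moved in both directions, 6 higher and 7 lower of 24, with a median of 0.01. Kcnq5, a slowly gating potassium channel, was at 1354.3, 1087.9, 1081.7 and 1099.4 CPM in members with a mean of 304 in the others (1.88, SE 0.11, edgeR adjusted p = 5.2e-09). Kcnc2, a Kv3 channel of fast-spiking cells, was at 1112.7, 913, 799 and 1233.5 CPM with a mean of 1986.5 in the others (-1.01, SE 0.09, adjusted p = 9.43e-07). Kcnc1, Kcna1 and the P/Q-type calcium channel gene Cacna1a were lower too, by -0.41, -0.51 and -0.91, and Kcnd2, Kcnd3 and Kcnh1 higher by 0.76, 0.66 and 0.99. Of 22 synaptic adhesion genes 2 were higher, among them Cntnap5b (0.48), and 4 lower, namely Nxph1 (-1.02), Nxph2 (-2.46), Cntnap4 (-1.0) and Elfn1. For all genes tested these shares were 5.33% higher and 5.05% lower. The directions of Cacna1e and Cntnap5b turned in the named clusters.

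Some of these smaller differences needed all 4 libraries. Without young 1 the calls of Grin3a, Abat, Faah, Napepld, Pnoc, Cntnap5b, Kcna1 and Cacna1c were lost. Without young 2 those of Gabrg3, Faah, Napepld, Pnoc, Chrna7, Chrm3, Cntnap5b, Kcnc1 and Cacna1c were lost. Without old 1 those of Abat, Gabrg3, Pnoc, Chrna7, Chrm3, Grik3, Kcnc1 and Cacna1c, and without old 2 those of Grin3a, Abat, Gabrg3, Faah, Napepld, Chrm3 and Grm5 were lost. The highest adjusted p over all alternatives was 0.0583 for Grin3a, 0.0699 for Grik3, 0.0558 for Grm5 and 0.105 for Chrna7, and between 0.127 and 0.869 for the rest of those named. Oprd1, Kcnd2, Kcnmb2 and Cacna2d3 lost their calls in the named clusters, and Cacna2d3 also in the Dlx-side nuclei.

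Of 5 serotonin receptors none passed the test over all nuclei, and Htr2c averaged 143 CPM in members and 148 in the others. In the Dlx-side nuclei Htr2c was higher in members by 2.25 (SE 0.29, edgeR adjusted p = 0.00277). Of 8 immediate early genes only Bdnf was higher, by 1.58, a call lost without called doublets and turned in direction in the named clusters. In the Dlx-side nuclei 3 of 5 were higher: Bdnf by 2.35 (edgeR adjusted p = 0.000234), Nr4a3 by 1.68 (0.0081) and Nr4a1 by 0.63 (0.0269). Among all genes tested there 7.08% were higher. Bdnf was also among the leading genes of cluster 15, which carried granule cell markers. No heat shock gene of 12 passed the test over all nuclei.

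Between 3 and 21 months no gene passed the test in the members: 0 of 11643 (0%) had an adjusted p under 0.05 by edgeR, while 716 (6.15%) had an unadjusted p under 0.05, 309 of them higher and 407 lower at 21 months. DESeq2 called 3. The count depended on the libraries used: edgeR called 97 genes without young 1, 55 without young 2, 12 without old 1 and 158 without old 2, fits in which 1 age has a single library. Both old libraries lay on one side of both young ones for 34.7% of genes, so separation alone marks no gene out. The genes below are those of smallest p that met the naming rule, and none is a call in that test.

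On the higher side at 21 months stood Ebf1, a transcription factor of early neuronal and vascular cells (chromosome 11, 44617317 to 45008091). It was at 12.1 and 8.48 CPM at 3 months and 26.9 and 32.6 CPM at 21 months, without overlap (log2 fold change 1.63, SE 0.26, edgeR adjusted p = 0.0983). Dlx-side members held 27 of its UMIs (0, 6.31, 0.831 and 0.815 CPM by library) and Otx2-side members 162 (67.4, 13.1, 55.5 and 121 CPM), and nuclei outside the gate held 46.6, 26, 90.9 and 33.9 CPM. The 5 endothelial and mural markers summed to 15.9, 22.0, 15.0 and 87.2 CPM in members, highest in old 2, the library with the most Ebf1, and to 15.7, 26.5, 10.8 and 13.0 CPM in Dlx-side members. Their part in the Ebf1 values was not tested. Npsr1 was at 41.1, 28.9, 73 and 62.3 CPM (1.04, adjusted p = 0.121) and at most 0.815 CPM in Dlx-side members. Otx2-side members held 530 of the Npsr1 UMIs and Dlx-side members 3. The share of Otx2-side nuclei was highest in old 1, and its part in these differences was not tested.

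The noncoding transcript Gm48530 was at 1.45, 2.67, 10 and 14.2 CPM in members (2.38, edgeR adjusted p = 0.121). Outside the gate it was at 13.8, 14.3, 115 and 120 CPM, so the nuclei around the members showed the same order at higher levels. Htr1f, a serotonin receptor, was at 94.2, 84.7, 142 and 127 CPM in members (0.62, SE 0.13, adjusted p = 0.174), with 127, 101, 113 and 118 CPM outside the gate. Ano5, an anoctamin, was at 8.21, 6.6, 21 and 16.6 CPM (1.43, adjusted p = 0.174). In each of these 3 genes both old libraries lay above both young ones, also in the Dlx-side members. In the named clusters Htr1f overlapped between ages (104, 80.1, 94.7 and 147 CPM, 0.45).

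On the lower side stood Glis3, a zinc finger transcription factor that is also a granule cell marker here (chromosome 19, 28258851 to 28680077). Members had 103 and 147 CPM at 3 months and 49.7 and 63.5 CPM at 21 months (-1.16, SE 0.18, edgeR adjusted p = 0.121, DESeq2 adjusted p = 0.0469). In the named clusters it was at 7.08, 12.9, 5.09 and 0 CPM and outside the gate at 472, 609, 587 and 522. The 6 granule cell markers, of which Glis3 is one, summed to 447.4, 619.1, 445.5 and 396.7 CPM in members, and to 346.8 and 448.3 CPM in young against 232.7 and 224.0 CPM in old Dlx-side members. With called doublets left out the log2 fold change of Glis3 was -1.14 (edgeR adjusted p = 0.91). The sums include Glis3, so they do not show how the other markers alone were ordered. The part of granule cell RNA in the Glis3 values was not tested.

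Gm28376 and Jph1, a junctophilin gene, overlap on opposite strands of chromosome 1 and were both lower in the old libraries. Gm28376 was at 232 and 209 against 96.2 and 123 CPM (-0.99, SE 0.15, edgeR adjusted p = 0.0983, DESeq2 adjusted p = 0.0314), and Jph1 at 113 and 114 against 58.8 and 71.8 CPM (-0.79, adjusted p = 0.121). The strand setting of the counting is not given in the sources used here. Whether reads of the pair were kept apart is thus not known. In the named clusters the differences were smaller, -0.31 for Gm28376 (adjusted p = 0.798) and -0.15 for Jph1 (adjusted p = 0.947), and in Dlx-side members they were -0.68 (0.118) and -0.48 (0.505). Outside the gate these genes were more abundant, Gm28376 at 459 to 644 and Jph1 at 306 to 359 CPM. The noncoding 4930509J09Rik (93.2, 108, 48.3 and 58.7 CPM, adjusted p = 0.0983) and Mmd2 (25.6, 25.1, 9.12 and 6.52 CPM, adjusted p = 0.0983) had the same order and were also higher outside the gate, at 246 to 359 and 106 to 126 CPM. DESeq2 also called Ptk2b, a focal adhesion kinase gene, at 57.5, 94.9, 27.4 and 28.5 CPM (adjusted p = 0.0314), which was at 313 to 380 CPM outside the gate.

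**Figure D5:**
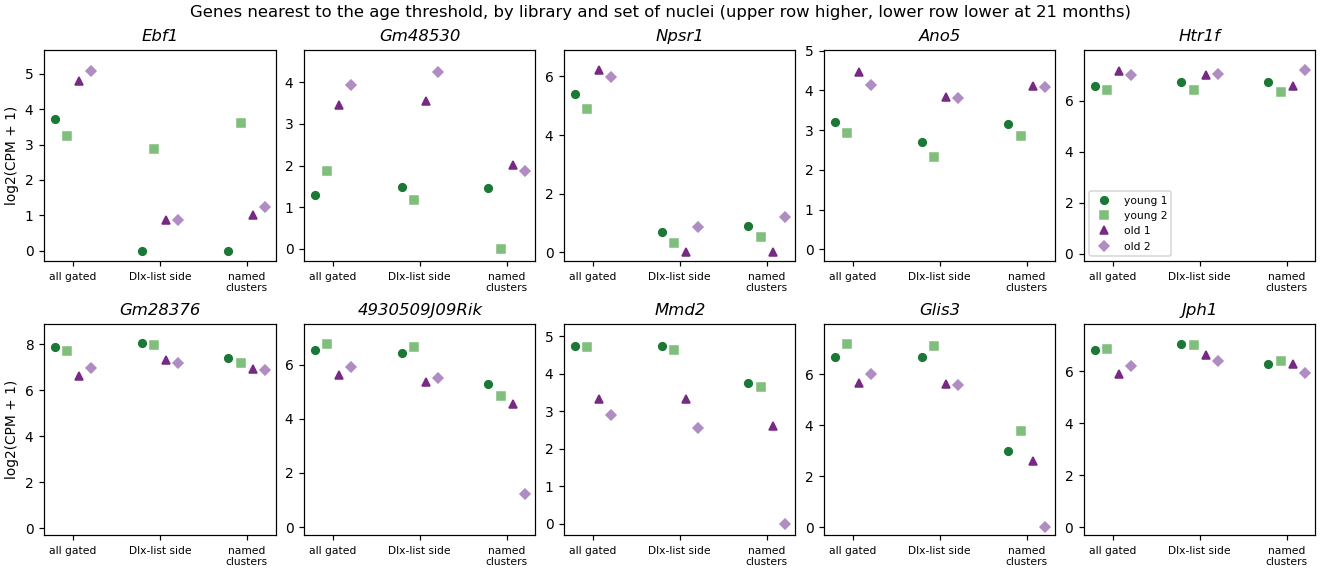
Levels of the 10 genes named for age, as log2(CPM + 1), in all members, in Dlx-side members and in the named clusters, with 1 point per library. In all members both old libraries lie above both young ones in the upper row and below them in the lower row, while Npsr1 is near 0 in Dlx-side members and Glis3 is low in the named clusters.

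Within Dlx-side members, a restriction chosen after seeing the data, 5 of 10183 genes (0.0491%) passed the edgeR test for age, all lower at 21 months. Adgrl2, an adhesion G-protein-coupled receptor of the latrophilin family, was at 30.8 and 20.2 CPM in young and 2.49 and 2.44 CPM in old libraries (-3.22, SE 0.46, adjusted p = 0.0323). Over all members it was at 50.7, 49.2, 89.8 and 43.9 CPM, which overlapped. Otx2-side nuclei had 95.2 to 194 CPM of Adgrl2, and their part in this overlap was not tested. Outside the gate it was at 80.7, 58.7, 49.6 and 37.9 CPM. The others were Pcdh11x, a protocadherin on the X chromosome (66.5, 59.4, 21.6 and 22.8 CPM, adjusted p = 0.0323), Gm30382 (11.5, 16.2, 0 and 0.815 CPM), Glis3 and 4930509J09Rik. Over all members Pcdh11x was at 122, 175, 169 and 81.8 CPM and Gm30382 at 25.1, 26.7, 41.5 and 5.93 CPM, and both overlapped between ages. Outside the gate Gm30382 was also lower in both old libraries, at 99, 69.5, 42.5 and 33.4 CPM. Pcdh11x overlapped there, at 88.5, 59.4, 101 and 80 CPM. Gm30382 and Adgrl2 lie near each other on chromosome 3.

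Within the Vip-, Cck- and Lamp5-like clusters alone, 2 of 9035 genes (0.0221%) passed. Adgrl2 was lower, at 31 and 23.1 CPM in young and 2.04 and 4 CPM in old libraries (-3.08, edgeR adjusted p = 0.0477). Eya4, a transcriptional cofactor of the eyes absent family (chromosome 10, 23102963 to 23350786), was higher, at 54 and 53.9 CPM in young and 118 and 108 CPM in old libraries (1.13, SE 0.18, adjusted p = 0.0477). Outside the gate Eya4 was at 20.1, 12.8, 32.6 and 20.9 CPM, where both old libraries also lay above both young ones. Its RNA belonged to the Lhx6-bearing Lamp5-like clusters, at 218, 189, 288 and 412 CPM there against 8.5 CPM or less in the Vip-like, Cck-like and cluster 5 pools. Those clusters supplied 17 of 70, 39 of 131, 19 of 47 and 13 of 40 named nuclei, a larger share in the old libraries; the part of that share in the difference was not tested. Over all members Eya4 had a log2 fold change of 0.63 (adjusted p = 0.346).

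The markers of the subtypes showed no change with age that passed the test. Vip was 46.9 and 14.8 CPM in young and 16 and 5.93 CPM in old members, which overlapped (-1.23, SE 0.97, edgeR adjusted p = 0.951). Cnr1 (0.19), Reln (-0.08), Npy (0.26) and Lhx6 (0.17) had adjusted p-values of 0.964 or more, and their values overlapped or differed little between ages. Slc32a1, the vesicular GABA transporter, was at 24.6, 20.1, 36 and 36.2 CPM (0.75, SE 0.20, adjusted p = 0.433) and Prox1 at 72, 90.3, 48.8 and 60.5 CPM (-0.58, SE 0.16, adjusted p = 0.46). In both genes the ages did not overlap over all members. In Dlx-side members Prox1 was at 81, 109, 84.8 and 73.3 CPM, which overlapped (-0.23), while Slc32a1 stayed apart at 26, 16.9, 35.7 and 28.5 CPM (0.72, adjusted p = 0.654).

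None of the 16 functional lists held a gene called for age. Of 8 immediate early genes, 4 had an unadjusted p under 0.05, all with lower values at 21 months, against 407 lower of all 11643 genes, and the list's median log2 fold change was -0.76 against 0.00 over all genes. In Dlx-side members 2 of 7 had such a p, with a median of -0.51, against 370 lower of all 10183 genes tested there and a median of 0.00. The 6 excitatory markers summed to 342.1, 462.0, 275.9 and 335.1 CPM in members, also lower in both old libraries. In Dlx-side members these markers summed to 360.1, 490.5, 331.7 and 376.3 CPM, where the ages overlapped. Their part in the immediate early values was not tested. Bdnf was at 32.4, 24.4, 13.2 and 19.6 CPM and Homer1 at 137, 102, 82.5 and 77.7 CPM. Of 12 heat shock and proteostasis genes, 4 had an unadjusted p under 0.05, also with lower values, and the median was -0.19. In Dlx-side members there were 2 of 12, with a median of -0.21, against the same 370 of 10183 genes. Hspa8 was at 90.4, 80.8, 47.9 and 70 CPM. The GABA-A receptor, ion channel and synaptic adhesion lists had no gene at an unadjusted p under 0.05, and their medians were -0.02, 0.02 and -0.04.

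The age effect was last compared between members and the other GABAergic nuclei. The difference of the age effects passed the edgeR test for 0 of 11922 genes (0%), and 444 genes had an unadjusted p under 0.05. Htr1f had 94.2, 84.7, 142 and 127 CPM in members and 310, 180, 139 and 159 CPM in the others (difference 1.19, SE 0.24, adjusted p = 0.748). Fign, a microtubule-severing enzyme, had 13.5, 36.4, 26.4 and 16 CPM in members and 3.81, 13.3, 36.2 and 34.7 CPM in the others (-2.29, SE 0.37, adjusted p = 0.33). The other genes of smallest p were Tafa1 and Ndst4, with differences of 1.12 and 1.58, and Ahcyl2 and Mapk4, with -0.86 and -0.92, at adjusted p-values from 0.748 to 0.955. No age effect was therefore shown to differ between the classes.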

How the data were processed

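The 4 hippocampal libraries were read from the deposited matrices of raw UMI counts per gene and barcode, whole numbers to which the authors had applied no normalization, for 32285 genes. Per the file headers the libraries were counted with Cell Ranger 6.1.2, whereas the submitters' processing notes list Cell Ranger 4.0.0 and the mm10 build. Whether intronic reads were counted and with which strand setting is not given in the sources used here. Coordinates came from GENCODE vM21 (GRCm38, the same build as mm10), which held 32158 of the gene identifiers.

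Raw counts of the members, and of the other GABAergic nuclei, were summed per library, so the library was the replicate. The sums held 1686306 to 6365196 UMIs in members. Levels are CPM, counts per 1000000 UMIs of a sum. Tests used the edgeR 4.0.16 quasi-likelihood test in R 4.3.3 (TMM normalization, filterByExpr, robust fits), with Benjamini-Hochberg adjustment over all genes tested and a call at an adjusted p under 0.05. SE is the standard error of a log2 fold change. Age was fitted without a block, and the comparison with other GABAergic nuclei had library as a block. Shares were compared by exact two-sided permutation of the libraries, and their intervals are 95% Clopper-Pearson intervals. Doublets were called with Scrublet in scanpy 1.11.5 and kept, with their removal as an alternative. Members were clustered on 2000 variable genes, 20 components and 15 neighbours at Leiden resolution 1.0. The scripts were tested on simulated counts.

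The members, lists, tests and naming rule were chosen with earlier results of these data known. For age the rule named calls whose old libraries lay on one side of the young ones at 10 CPM or more, filled up to 5 per direction by smallest p. For the class comparison it named the 10 largest changes per direction with 1 sign in all 4 libraries and at least 20 CPM, and for the difference of age effects the 3 smallest p per direction. The regulator lists, the restriction to Dlx-side nuclei and that to named clusters were added after the data had been seen. Some genes of the lists entered the counts but are not reported here by name. Alternatives were DESeq2 1.42.0, RLE size factors, no filter on low counts, the replicate number as a block, equal nuclei per library, other Adarb2 thresholds (5 and 20 UMIs), a comparator with 0 to 2 Adarb2 UMIs, other cluster resolutions (0.5 and 2.0) and leaving out each library. Same-numbered libraries did not deviate together (r = -0.047 over 6426 genes, a single value, since with 2 libraries per age the deviations mirror each other), so the numbers were not taken as pairs.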

Additional observations from a re-analysis of the deposited data

Results flagged for a closer look

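The caudate putamen libraries, which no comparison above used, also held nuclei that met the gene and UMI conditions of the membership rule. They numbered 1170, of which 297 and 404 came from the libraries of 3 months and 297 and 172 from those of 21 months, more than the 622 hippocampal members. Between 93.0% and 95.8% of them had more UMIs of the Dlx list, and at most 1 nucleus per library had more of the Otx2 list. Vip was absent from 3 of the libraries and at 0.324 CPM in the fourth, while Rgs9, a marker of striatal projection neurons, was at 797 to 1045.9 CPM.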

How the results depend on the processing

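Depth, the few old Vip-like nuclei and 2 libraries per age limit these results. The count of genes called for age, 0 as reported, was 0 with RLE size factors, without doublets and at 20 Adarb2 UMIs, 1 at 5 Adarb2 UMIs, 2 with equal nuclei per library, 2 in the named clusters, 3 with DESeq2, 5 in Dlx-side members, 98 with the replicate number as a block and 104 with no filter on low counts. Leaving out a library gave 12 (old 1) to 158 (old 2), with 97 without young 1 and 55 without young 2; these fits leave a lone library that is assumed to vary like the others. Cause was not tested. The samples share only a number, so the block is no evidence of pairing. For the comparison with other GABAergic nuclei, 1238 calls became 694 with DESeq2, 888 without the library block, and 893 to 991 without a library. The difference of age effects had 27 calls with no filter, 2 in the named clusters and 0 to 15 without a library.

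The old minus young member share of -0.0458 percentage points ran from -0.26 to 0.169 without a library, the latter without young 2, and was -0.0758 in the named clusters and -0.174 in Dlx-side members. The share among GABAergic nuclei, 0.439 points higher, became -1.34 after thinning, -3.28 in the named clusters, -0.327 in Dlx-side nuclei and -1.45 to 2.33 without a library. The Cck-like difference of 0.205 points became -3.56 without doublets, -3.2 at resolution 0.5 and -3.15 to 3.56 without a library. The Lamp5-like one of -0.884 ran from -3.67 to 1.9 without a library and was -3.71 at resolution 0.5, where Lamp5-like nuclei were 5.88% of old and 9.59% of young members against 22.2% and 23.0%; at resolution 2.0 they were 14.3% and 14.9%. The Vip-like one of -4.77 ran from -7.6 to -1.93 without a library. Genes named for age kept their direction in each alternative fit that tested them. The naming rule required both old libraries to lie on one side of both young ones, so this direction was largely fixed beforehand. Ebf1 and Npsr1 were too low to be tested in Dlx-side members and named clusters. In both of these sets the mean of Ebf1 was lower at 21 months.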
